A study of Mus musculus with 33 samples.

Results

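The 9 genes described here belong to the methionine cycle and the folate-linked one-carbon network: Mat2a, Mat2b, Ahcy, Mtr, Mthfd1, Mthfd2, Shmt1, Shmt2 and Cbs. They were taken by gene symbol from a table of 56414 gene rows, and each symbol matched a single row. In the libraries labelled spleen, both genes of methionine adenosyltransferase II rose after 1 and 3 days of nicotinamide, Mat2a by 1.49-fold and 1.39-fold and Mat2b by 1.36-fold at both times, and neither passed the test at 14 days. In the main test, limma, none of the other members passed at any time against untreated, and no member did so in the libraries labelled lymph node. Other settings called Mthfd1, Mtr, Ahcy or Shmt2 at some times, as given beside their values.

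The methionine cycle makes S-adenosylmethionine, the methyl donor of nearly all cellular methylation, from methionine and ATP. Once a methyl group has been passed on, the product is hydrolysed to homocysteine, which is either remethylated to methionine with a one-carbon unit from folate or drained into cysteine synthesis. Nicotinamide (NAM), a form of vitamin B3, draws on the same methyl donor when nicotinamide N-methyltransferase (Nnmt) methylates it for excretion. In lymphocytes, serine-derived one-carbon units also feed purine and thymidylate synthesis for proliferation.

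The mice were tumour-free C57Bl/6 animals that drank water with 0.5% NAM for 1, 3 or 14 days, or were left untreated; the labels give no age and no further allele or agent. Libraries of polyA RNA labelled spleen comprised 5 per group, and those labelled lymph node comprised 3 untreated libraries, 2 at 1 day, 4 at 3 days and 4 at 14 days. The study's methods describe a single experiment on a number of mice, and the labels do not tie libraries to mice, so a p-value measures the spread between these libraries, which may in part be technical. Libraries labelled spleen held between 18325061 and 54830743 whole reads each, and those labelled lymph node between 30424968 and 46733974.

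Defining markers went against the tissue labels. The summed normalised counts of 5 genes of lymph node high endothelial venules (Glycam1, Chst4, Fut7, Madcam1, Ccl21a) were 135288 to 255478 in libraries labelled spleen and 6934 to 15421 in those labelled lymph node. Glycam1 made up most of this sum (mean 150023 against 7.80), and Madcam1 went the other way (211 against 762). The sums of 6 genes of splenic red pulp and mesenchyme (Spic, Slc40a1, Vcam1, Hmox1, Tlx1, Nkx2-5) were 4486 to 7598 and 42565 to 83529, respectively. Each set is therefore named below by its label alone. The 2 sets were scaled separately, so levels were not tested between them. In whole tissue, fewer cells of a type and less RNA per cell cannot be told apart.

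Mat2a encodes the catalytic subunit of methionine adenosyltransferase II, the enzyme that makes S-adenosylmethionine outside the liver, and lies on chromosome 6 (mm10, 72432799 to 72439564, minus strand). Its messenger RNA is known to sense the methyl donor through hairpins in the 3′ UTR that the RNA methyltransferase Mettl16 binds and methylates. The known Mettl16 motif, TACAGAGAA or TACAGAAAA, was found at 6 places in the 3′ UTR of the GENCODE transcript Mat2a-202, which is 2178 bases long. These sites are shown because they set Mat2a apart from the other members. The motif was chosen after the values of Mat2a were known. Each line is read 5′ to 3′ on the transcript strand, with the motif in capitals.
Mat2a site 1: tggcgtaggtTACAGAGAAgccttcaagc
Mat2a site 2: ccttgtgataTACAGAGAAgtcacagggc
Mat2a site 3: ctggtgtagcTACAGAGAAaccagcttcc
Mat2a site 4: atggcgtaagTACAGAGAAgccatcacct
Mat2a site 5: caaggtgtccTACAGAAAAaccttgggtt
Mat2a site 6: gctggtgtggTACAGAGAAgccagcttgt

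The sites lie on the minus strand of GRCm38 (mm10), from chr6:72434235-72434263 for the first to chr6:72432938-72432966 for the sixth. The same 6 matches stand in the shorter 3′ UTR of Mat2a-201 (1494 bases), whereas the 3′ UTR of Mat2a-206 (182 bases) holds 0. Among 21112 genes with an annotated 3′ UTR, 940 (4.45%) held at least 1 match on the transcript strand, and Mat2a was the only gene with as many as 6. Mettl16 is known to bind hairpins of this 3′ UTR, so matches in Mat2a were fixed in advance and its place is no test. The other 8 members held 0. A match is a description of letters and not a measured site; counts per gene do not show splicing or RNA methylation.

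In the libraries labelled spleen, the normalised read counts of Mat2a were 2440, 2737, 2552, 2477 and 2524 in untreated mice. After 1 day of NAM they were 4038, 4025, 3642, 3812 and 3474, and after 3 days 3010, 3661, 3764, 3307 and 4037. After 14 days they were 2696, 3182, 2942, 2910 and 3195. Every library at 1 and 3 days lay above every untreated library, while at 14 days the lowest library lay within the untreated range and the other 4 above it.

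Tested with limma on log2(normalised count + 1), Mat2a rose by 0.58 ± 0.07 (log2 fold change ± SE) at 1 day, with an adjusted p of 0.000241 over 18243 genes. This is a fold change of 1.49 (95% interval 1.34 to 1.66). At 3 days the change was 0.48 ± 0.07, a fold change of 1.39 (1.25 to 1.55; adjusted p = 0.00472). At 14 days it was 0.23 ± 0.07 (fold change 1.17, interval 1.05 to 1.30), with an adjusted p of 1, as no gene passed the threshold of 0.05 there. Compared directly, the 14-day libraries were lower than the 1-day libraries (log2 change -0.35 ± 0.07, adjusted p = 0.00645), and all 5 lay below all 5. The share of all genes separated in this way between these 2 groups was not counted. By p-value Mat2a ranked 11th of the 18243 genes at 1 day and 8th at 3 days, whereas by size 13.1% and 11.5% of genes changed at least as much. Its rise was thus of moderate size with little spread between libraries.

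Mat2b encodes the regulatory subunit of the same enzyme (chromosome 11, 40679316 to 40695203, minus strand). Its normalised counts in untreated libraries labelled spleen were 3468, 3085, 3773, 3215 and 2967. They were 4719, 4096, 4643, 4429 and 4472 after 1 day, and 3128, 4658, 4819, 5162 and 4905 after 3 days. After 14 days they were 3543, 3356, 3502, 3072 and 3442. The 1-day libraries all exceeded the untreated ones, replicate 1 at 3 days stayed within the untreated range with the other 4 above it, and all 14-day libraries lay within that range.

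Mat2b rose by 0.44 ± 0.10 at 1 day (fold change 1.36, interval 1.17 to 1.58; limma adjusted p = 0.00745) and by 0.44 ± 0.10 at 3 days (adjusted p = 0.0221). At 14 days the change was 0.04 ± 0.10 (adjusted p = 1), and the 14-day libraries were lower than the 1-day ones (-0.40 ± 0.10, adjusted p = 0.0179). The 3-day change kept its size, but its call was not stable. It was lost when the fit held the 2 compared groups alone (0.44, adjusted p = 0.0832, with 0.767% of all genes called) and when untreated replicate 5 or 3-day replicate 2, 3, 4 or 5 was left out (0.39 to 0.43, with 0.0738 as the highest adjusted p), and without 3-day replicate 1 the change was 0.57 (adjusted p = 1.93e-05). Neither subunit passed the test between 1 and 3 days (adjusted p = 0.846 for Mat2a and 1.00 for Mat2b, with 0.00548% of all genes called) or between 3 and 14 days (0.0885 and 0.0596, with 1.05% called); these 2 comparisons were added after the values were seen.

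**Figure D1:**
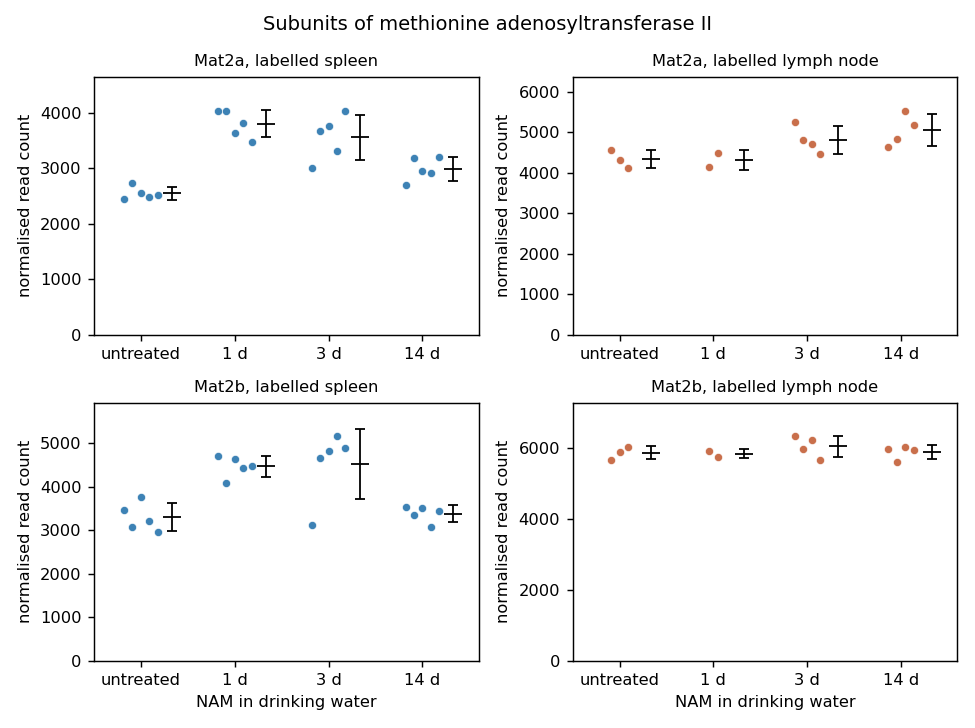
Normalised read counts (y axis, linear from 0) of Mat2a (top) and Mat2b (bottom) against days of NAM (x axis), with libraries labelled spleen on the left and lymph node on the right; each point is a library, and the bar beside it is the group mean with SD. In the left panels the 1-day libraries lie above all untreated ones for both genes, with means of 3798 against 2546 for Mat2a and 4472 against 3302 for Mat2b; in the right panels the Mat2a libraries at 14 days (4634 to 5537) lie above the untreated ones (4118 to 4563), and the Mat2b groups overlap.

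At 1 day, 16.6% of all genes tested under the spleen label were called in either direction, and 8.56% were called higher. Of the 9 members, all of which passed the filter on low values, 2 were called, both higher. At 3 days 5.55% of all genes were called, 2.82% higher, and 2 members, both higher. The share of all genes at 3 days depended on single libraries: it was 15.2% without 3-day replicate 1, and between 0.866% and 3% without any other library of the 2 groups except untreated replicate 3 (4.86%). In the direct comparison of 14 days with 1 day, 10.6% of all genes were called, 5.41% lower, and again 2 members, both lower. Leaving out 1 library at a time gave 6.65% (without 14-day replicate 1) to 9.95% of all genes there. At 14 days against untreated, limma called 0% of all genes and 0 members, and edgeR and DESeq2 called 0 members. At an unadjusted p under 0.05 in limma, 1 member, Mat2a, passed there, beside 510 of all 18243 genes. A count of 2 of 9 is close to the background at 1 day, so the members as a group did not stand out there. The median change of the members was 0.12 at 1 day and 0.06 at 3 days, against 0.01 and 0.00 over all genes. All treated libraries lay above all untreated ones for 6.42% of all genes at 1 day and 2.46% at 3 days. A second rule asked for an unadjusted p of at most 0.05 with a change of 1.5-fold or more. It called 8.21%, 3.4% and 1.12% of all genes at 1, 3 and 14 days against untreated, 5.17% between 14 days and 1 day, and 0 of the 9 members each time, as Mat2a at 1.49-fold stayed just under the limit.

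Other measures of these libraries moved with the same groups. The mitochondrial share of normalised counts was 8.92% to 9.85% in untreated libraries, 4.85% to 8.21% at 1 day and 8.44% to 11.9% at 14 days. At 3 days it was 5.95% to 8.29% in replicates 2 to 5 and 14.0% in replicate 1, the library in which Mat2b was not raised. The 3-day libraries were also deeper (43632016 to 54830743 whole reads) than the untreated ones (18325061 to 31486631). The part of these measures in the change of Mat2a and Mat2b was not tested; without 3-day replicate 1, Mat2a rose by 0.53 at 3 days (limma adjusted p = 3.24e-05).

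Under the lymph node label, Mat2a normalised counts were 4563, 4307 and 4118 in untreated libraries and 4144 and 4496 at 1 day. They were 5261, 4811, 4713 and 4455 at 3 days and 4634, 4840, 5537 and 5175 at 14 days. The 1-day libraries lay within the untreated range, and those at 14 days all lay above it. The log2 changes were -0.00 ± 0.09, 0.15 ± 0.07 and 0.22 ± 0.07, with limma adjusted p-values of 0.993, 0.347 and 0.213 over 18215 genes. All 14-day libraries lay above all untreated ones for 5.49% of all genes.

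Mat2b varied little under the lymph node label, with 5661 to 6027 normalised counts in untreated libraries, 5738 and 5923 at 1 day, between 5669 and 6322 at 3 days and between 5586 and 6035 at 14 days. Its changes were -0.01, 0.04 and 0.01. At 1 day the 95% interval of the fold change was 0.90 to 1.10 for Mat2b and 0.88 to 1.13 for Mat2a, both below the 1.17 and 1.34 at which the intervals under the spleen label began.

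The difference between the labels in the 1-day change was 0.58 for Mat2a and 0.45 for Mat2b. In exact permutation tests of treated and untreated libraries within each label, two-sided, the p-values were 0.00397 and 0.00437, which became 0.0589 for both after adjustment over 27 tests (9 members at 3 times). No difference between the labels passed the threshold of 0.05. At 1 day only 2520 arrangements exist, as the lymph node label holds 2 treated and 3 untreated libraries. Small p-values were therefore hard to reach, and not passing does not show that the labels were alike. The test shuffles libraries under the assumption of no treatment effect in both sets, and treats the 2 sets as different mice. Of the 2 libraries labelled lymph node at 1 day, replicate 1 stood apart in pancreatic acinar RNA, as given below for Cbs. The part of this in the 1-day comparisons was not tested.

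Under the lymph node label 8 of the 9 members passed the filter (Cbs did not), and limma called 0 of them at 1, 3 and 14 days. The shares of all genes called were 1.21%, 1.24% and 0.791%. Without untreated replicate 2 these shares were 0.362%, 0.467% and 0.17%. At an unadjusted p under 0.05 in limma, 1, 2 and 3 of the 8 members passed, beside 2726, 2694 and 2157 of all 18215 genes. The edgeR test called 0 at each time, beside 1.22%, 1.13% and 0.878% of all genes. DESeq2 called 0, 2 and 1 members, beside 2.96%, 2.71% and 2.09%. The rule of 1.5-fold with an unadjusted p called 0 members, against 4.91%, 3.38% and 3.46% of all genes.

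The 2 members that DESeq2 called at 3 days were Mthfd1 and Mtr. Mthfd1 encodes the trifunctional cytosolic enzyme that interconverts folate-bound one-carbon units for purine, thymidylate and methionine synthesis. Its normalised counts under the lymph node label were 1289, 1652 and 1220 in untreated libraries, 1136 and 1102 at 1 day, 1059, 1024, 1071 and 1162 at 3 days, and 1133, 1215, 986 and 1017 at 14 days. Every treated library lay below every untreated library at all 3 times. Separation in this direction was seen for 15.5%, 7.25% and 6.02% of all genes at 1, 3 and 14 days. The log2 changes were -0.30 ± 0.12, -0.35 ± 0.10 and -0.34 ± 0.10, with limma adjusted p-values of 0.246, 0.106 and 0.135. Leaving out 1 library at a time gave -0.38 to -0.16 at 1 day and -0.44 to -0.22 at 3 days (limma adjusted p 0.0751 to 0.465). At 14 days it gave -0.43 to -0.21 (0.0749 to 0.620). All 3 comparisons share the same 3 untreated libraries, of which replicate 2 stood highest at 1652.

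Mtr encodes methionine synthase, the cobalamin-dependent enzyme that remethylates homocysteine with methyl-folate. Its counts were 575, 592 and 554 in untreated libraries, 492 and 601 at 1 day, 452, 436, 449 and 472 at 3 days, and 537, 502, 432 and 444 at 14 days. The 3-day and 14-day libraries lay below the untreated ones, whereas those at 1 day fell on either side. The changes were -0.08 ± 0.11, -0.34 ± 0.10 and -0.26 ± 0.10, with limma adjusted p-values of 0.812, 0.102 and 0.259.

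At 3 days, Mthfd1 reached an adjusted p of 0.0248 in DESeq2 and 0.0480 in limma with library weights (3.06% of all genes called), and Mtr 0.0375 and 0.0368. At 14 days Mthfd1 was called by DESeq2 (adjusted p = 0.0478). Red-cell precursor RNA moved with the same groups: the summed counts of 7 erythroid genes were 20780 to 31920 in untreated libraries labelled lymph node, 14381 to 20709 at 1 day, 9515 to 14222 at 14 days and, lowest, 2472 to 12182 at 3 days. The sums of 10 proliferation genes were 23373 to 29312 in untreated libraries and 20436 to 24537 at 3 days. Their part in the lower counts of Mthfd1 and Mtr was not tested. Under the spleen label the changes were between -0.08 and 0.06 for Mthfd1 and between -0.19 and -0.07 for Mtr against untreated, and neither passed the test.

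Shmt1 and Shmt2 encode the cytosolic and mitochondrial serine hydroxymethyltransferases, which move a carbon from serine to folate. Under the spleen label Shmt2 counts were 2779, 2263, 2613, 2360 and 2342 in untreated libraries and 2183, 1949, 2080, 2044 and 2417 after 1 day. At 1 day 4 of the 5 libraries lay below the untreated range and the other within it. The log2 change was -0.21 ± 0.08, in the direction opposite to Mat2a, with a limma adjusted p of 0.0791, which became 0.0389 without 1-day replicate 5. Leaving out 1 library at a time gave limma adjusted p-values up to 0.194. The settings that left out no single library gave 0.0675 to 0.134 in limma, edgeR or DESeq2. At 3 days Shmt2 ranged from 2098 to 2400 (-0.16 ± 0.08, adjusted p = 0.266) and at 14 days from 2060 to 2876 (0.00 ± 0.08, adjusted p = 1). Between 14 days and 1 day Shmt2 changed by 0.20 to 0.22 in the alternative settings (limma, edgeR or DESeq2, adjusted p 0.0634 to 0.181). Leaving out 1 library at a time gave 0.16 to 0.28 there, with limma adjusted p-values of 0.0306 to 0.255.

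Shmt1 stayed between 265 and 398 in all 20 libraries labelled spleen, with changes of 0.07, 0.04 and 0.06 at 1, 3 and 14 days and adjusted p-values of 0.643, 0.853 and 1. In libraries labelled lymph node Shmt1 ranged from 310 to 463 and Shmt2 from 1872 to 2605. No change of either gene passed the test there. The lowest adjusted p was 0.467, for Shmt1 at 1 day.

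Mthfd2, the mitochondrial methylene-folate dehydrogenase of proliferating cells, ranged from 992 to 1397 normalised counts in untreated libraries labelled spleen and from 918 to 1431 in the treated ones. Its changes were 0.12, 0.14 and -0.00 with adjusted p-values of 0.532, 0.536 and 1. Ahcy, the hydrolase that removes S-adenosylhomocysteine, the inhibitory product of methylation, ranged from 820 to 1072 in untreated libraries and from 699 to 1209 in treated ones. Its change was 0.18 ± 0.12 at 1 day (adjusted p = 0.320) and 0.11 ± 0.12 at 3 days (adjusted p = 0.665). With library weights, which lower the weight of libraries that stand apart, the 3-day change of Ahcy was 0.26 (adjusted p = 0.0286), a setting under which 25.9% of all genes were called. The lowest of the 20 libraries was 3-day replicate 1 with 699.

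Cbs, the first enzyme of transsulfuration, which commits homocysteine to cysteine, was close to the limit of detection. Its normalised counts were 16.8 to 92.9 under the spleen label, and 0 to 16.9 in 12 of the 13 libraries labelled lymph node. The thirteenth, 1-day replicate 1, had 34.7. In that library the summed counts of 9 pancreatic acinar genes were 123732, against 628 to 1270 in the other 12, and the part of this in its Cbs count was not tested. The spleen-label changes of Cbs were 0.37, -0.38 and -0.35, each with an SE of 0.36 and none past the test. They rest on few reads (12 to 90 whole reads per library) that varied widely between libraries of a group, from 17.8 to 57.8 normalised counts in the untreated ones.

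**Figure D2:**
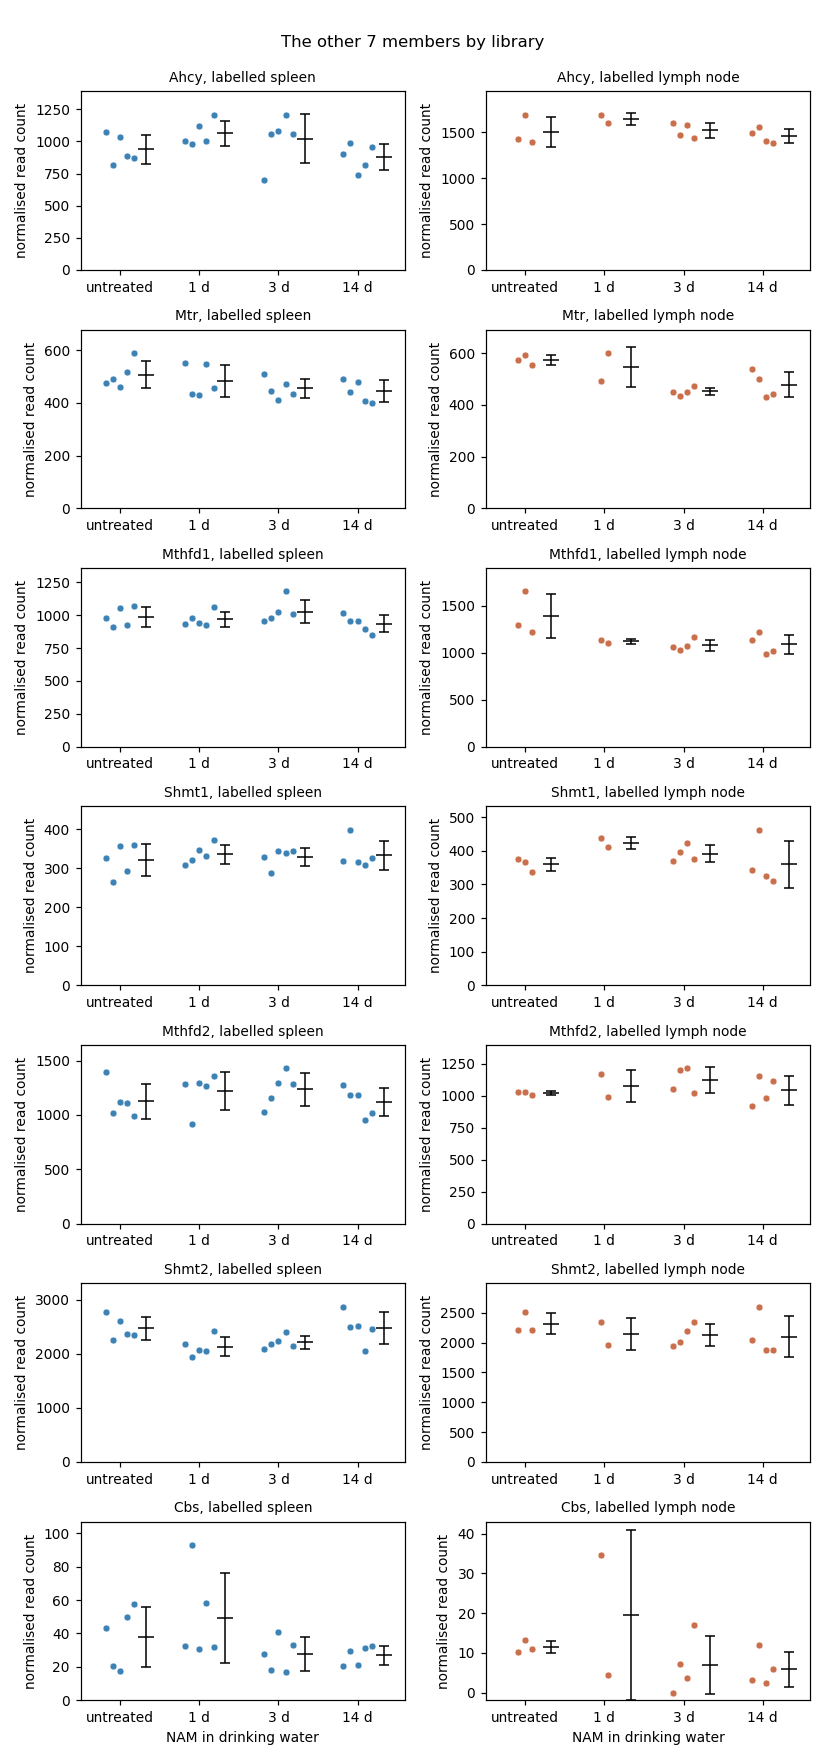
Normalised read counts (y axis, linear) of the other 7 members against days of NAM (x axis), with libraries labelled spleen on the left and lymph node on the right; each point is a library, and the bar beside it is the group mean with SD. Treated and untreated libraries overlap in all left panels, and in the right panels Mthfd1 lies lower in every treated group, at 986 to 1215 against 1220 to 1652.

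**Figure D3:**
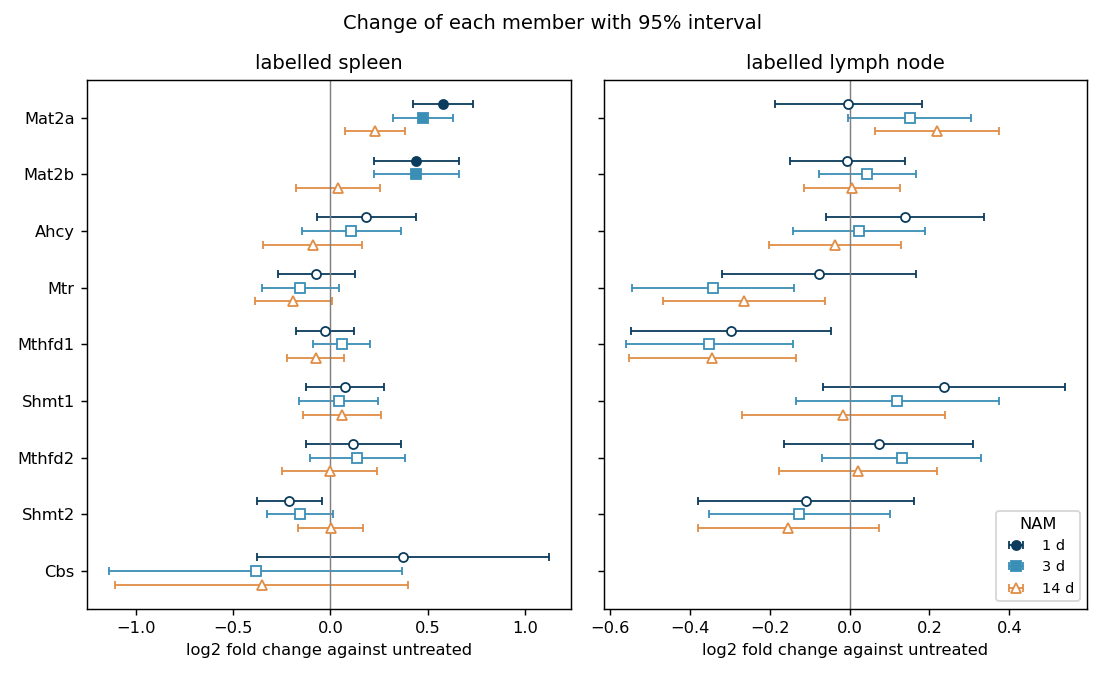
Log2 fold change against untreated (x axis, a different range in each panel) of each member at 1, 3 and 14 days of NAM, from the limma fit, with the bar as its 95% interval; filled symbols have an adjusted p under 0.05. Filled symbols stand at Mat2a and Mat2b at 1 and 3 days in the libraries labelled spleen, and the right panel has none; Cbs was not tested there.

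Levels of different genes were compared per kb of exon, with exon lengths from GENCODE. In untreated libraries labelled spleen the order, in normalised reads per kb, was Mat2b (1405 ± 137, SD, n = 5), Shmt2 (1072 ± 94), Mat2a (751 ± 34), Mthfd2 (541 ± 77), Ahcy (369 ± 43), Mthfd1 (304 ± 23), Shmt1 (112 ± 14), Mtr (61.1 ± 6.1) and Cbs (6.04 ± 2.84). Among neighbours in this order, the ranges of mean ± SD met for Ahcy and Mthfd1 alone. In the lymph node set Mat2b (2491 ± 78, n = 3) was again the highest and Cbs (1.84 ± 0.25) the lowest. The mitochondrial Shmt2 stood above the cytosolic Shmt1 under both labels (1005 ± 76 against 126 ± 7 under the lymph node label). These lengths approximate the counted regions, whose lengths are not given in the sources used here.

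Exons of Mat2a, Mthfd1, Shmt1 and Shmt2 overlap a gene on the opposite strand (Particl, Gm47525, Smcr8 and Ndufa4l2), and whether counting used strand is not given in the sources used here; reads of these pairs can therefore be shared. The promoters of all 9 members (RefSeq, 250 bases before to 50 after the start) were searched on both strands for TGATGNAA, CACGTG, TTTNNCGC and TGACGTCA. These letters stand in 3.97%, 7.15%, 5.17% and 1.79% of 32851 promoters. TTTNNCGC was found in that of Shmt2 and CACGTG in that of Cbs. The other 7, Mat2a and Mat2b among them, held none of the 4. The stretch searched for Mat2b (chr11:40692633-40692932) lies inside its gene row, which begins at 40695203 on the minus strand. The bases before that upstream start were not searched.

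Over the 20 libraries labelled spleen, Pearson's r of the log2 values of Mat2a and Mat2b was 0.78, and that of Mat2a and Shmt2 was -0.64. Over the 13 libraries labelled lymph node the values were 0.32 and -0.62. The points share treatment groups and library composition, so these are descriptions. The genes most like Mat2a under the spleen label were Pts (r = 0.94), an enzyme of tetrahydrobiopterin synthesis, and Aasdhppt (r = 0.93), which attaches phosphopantetheine to carrier proteins. Those most like Mat2b were Cnbp and Gm8203 (r = 0.98 for both). Over the 13 libraries labelled lymph node, r was 0.69 for Mat2a with Pts and 0.31 with Aasdhppt, and 0.80 for Mat2b with Cnbp and 0.31 with Gm8203.

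A wider list of 64 genes of these pathways, the 9 members included, was read in the same fits. Under the spleen label 59 were tested. At 1 day 12 of them (20.3%) were called, 10 higher and 2 lower, beside 16.6% of all genes. At 3 days 4 were called, all higher, beside 5.55%. At 14 days limma, edgeR and DESeq2 called 0, and 3 of the 59 had an unadjusted p under 0.05 in limma, beside 510 of all 18243 genes. By role, the methionine cycle held 5 of the 12 calls at 1 day among 9 genes tested, with 4 higher and 1 lower. Serine synthesis held 2 of 3 genes, both higher. The groups of folate uptake and transsulfuration held none.

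Besides Mat2a and Mat2b, the gene with the lowest adjusted p at 1 day was Mmadhc, which directs cobalamin to methionine synthase and to the mitochondrion. Its counts were 814, 904, 977, 1014 and 811 in untreated libraries, 1218, 1862, 1350, 1436 and 1393 at 1 day, and 1013, 1236, 1329, 1262 and 1461 at 3 days. It rose by 0.67 ± 0.10 at 1 day (limma adjusted p = 0.000549) and by 0.47 ± 0.10 at 3 days (0.0139). The 3-day call was lost without 3-day replicate 3 or 5 (adjusted p = 0.0529 and 0.0591) and with the 2 groups alone (0.0516).

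Ahcyl2, a homologue of Ahcy, had 2708 to 3131 counts in untreated libraries, 3380 to 4453 at 1 day and 3633 to 4206 at 3 days. It rose by 0.44 ± 0.09 (limma adjusted p = 0.00398) and 0.43 ± 0.09 (0.0138), and the second call was lost without 3-day replicate 5 (0.0540). No treated library at 1 or 3 days reached down to the untreated range. Psph, the last enzyme of serine synthesis, went from 428 to 499 in untreated libraries to 519 to 782 at 1 day (0.42 ± 0.10, adjusted p = 0.00665). Gcsh, the carrier protein of mitochondrial glycine cleavage, went from 663 to 952 to 1064 to 1885 (0.60 ± 0.15, adjusted p = 0.0103).

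The remaining calls at 1 day were Mettl16 (0.27 ± 0.07, adjusted p = 0.0145), Mthfs, Phgdh and Nnmt, which rose, and Gnmt and Sms, which fell; apart from Nnmt they are named because they complete the 12. Mettl16, whose motif is shown above for Mat2a, had 584 to 693 counts in untreated libraries and 656 to 796 at 1 day, and its adjusted p was 0.0504 with the 2 groups alone. Gnmt, a glycine methyltransferase that uses up S-adenosylmethionine, had few counts (10.4 to 24.2 untreated, 2.89 to 9.86 at 1 day). Its mean over the libraries labelled spleen was 10.1, just over the filter of 10, so it was tested only through groups in which it was higher. Its log2 change was -1.19 ± 0.35 (adjusted p = 0.0261). Of these, Mettl16 kept its call whichever library was left out (adjusted p at most 0.0417), whereas the others passed close to the threshold. Gnmt lost its call without untreated replicate 1 or 3 or 1-day replicate 1, 3 or 4, Phgdh without untreated replicate 2, 4 or 5 or 1-day replicate 2 or 5, Mthfs without untreated replicate 5 or 1-day replicate 3 or 5, and Sms without untreated replicate 1 or 5 or 1-day replicate 2 or 5, with 0.0757 as the highest adjusted p among them. The changes themselves stayed in their direction, from -1.35 to -0.98 for Gnmt, 0.23 to 0.33 for Phgdh, 0.39 to 0.53 for Mthfs and -0.52 to -0.36 for Sms. The call was also lost for Gnmt with no filter (0.0619) and, with the 2 groups alone, for Gnmt (0.0731) and Phgdh (0.0561).

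Nnmt, the enzyme that methylates nicotinamide itself, had 123, 367, 217, 293 and 389 counts in untreated libraries labelled spleen and 429, 1492, 537, 847 and 563 at 1 day. All 5 libraries at 1 day lay above the untreated range, and its change was 1.44 ± 0.42 (limma adjusted p = 0.0259), a call lost without 1-day replicate 2 (1.16, adjusted p = 0.0721), 1-day replicate 4 (0.0578), untreated replicate 1 (0.0758) or untreated replicate 3 (0.0508) and with library weights (1.02, adjusted p = 0.0715). At 3 and 14 days the changes were 0.70 ± 0.42 (adjusted p = 0.355) and 0.50 ± 0.42 (adjusted p = 1). For the lymph node label they were 0.04, 0.26 and -0.03, with adjusted p-values of 0.965, 0.601 and 0.974.

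Fat-cell RNA varied between the libraries labelled spleen. The summed counts of 8 adipocyte genes were between 34344 and 182876 in untreated libraries and between 109180 and 472854 at 1 day. At 3 days the sums lay between 54275 and 221085, and at 14 days between 48416 and 232833. The highest sum was in 1-day replicate 2, which also had the highest count of Nnmt, Mmadhc, Psph, Gcsh and Ahcyl2. Without that library the 1-day changes were 0.58 for Mmadhc, 0.33 for Psph, 0.46 for Gcsh, 0.39 for Ahcyl2 and 0.55 for Mat2a, with adjusted p-values of 0.00113, 0.0156, 0.0247, 0.0115 and 0.000789.

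Under the lymph node label 56 genes of the wider list were tested. The limma fits called 0 at 1 day, 1 at 3 days and 1 at 14 days, beside 1.21%, 1.24% and 0.791% of all genes. At 1 day 8 had an unadjusted p under 0.05 in limma, beside 2726 of all 18215 genes. The edgeR and DESeq2 tests called 0 there, beside 1.22% and 2.96% of all genes. Both calls were Gclm, the modifier subunit of the enzyme that starts glutathione synthesis. Its counts were 632, 878 and 714 in untreated libraries, 482, 410, 472 and 461 at 3 days, and 415, 384, 460 and 459 at 14 days. Gclm fell by 0.69 ± 0.11 (limma adjusted p = 0.00326) and by 0.78 ± 0.11 (0.00290), with no overlap between treated and untreated libraries. The erythroid sums given above moved with the same groups, and their part was not tested.

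**Figure D4:**
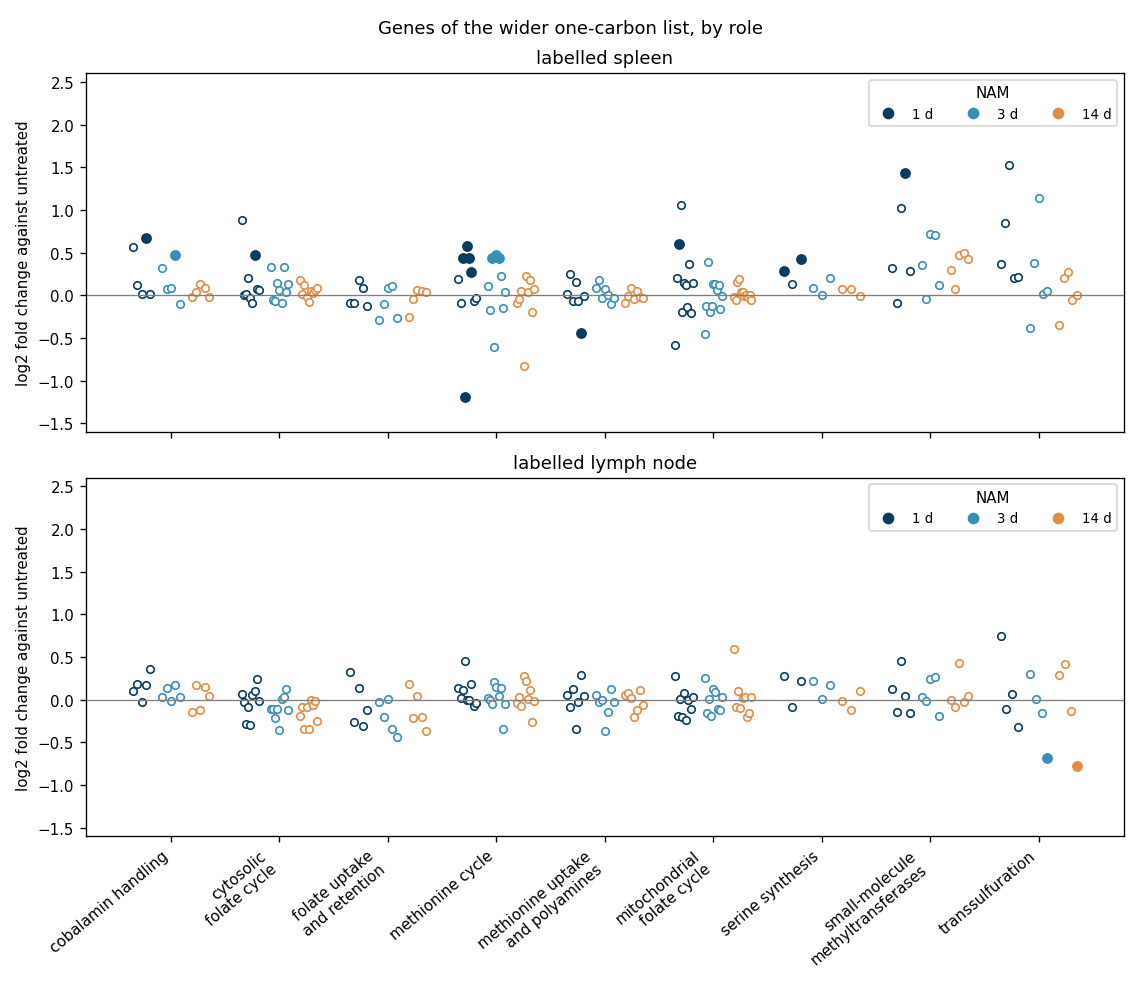
Log2 fold change against untreated (y axis) of the tested genes of the wider list, grouped by role (x axis), at 1, 3 and 14 days of NAM, for the libraries labelled spleen (top) and lymph node (bottom); each point is a gene, and filled points have an adjusted p under 0.05. Of the 12 filled points at 1 day in the top panel, 10 are above 0, and the 2 filled points in the bottom panel are Gclm.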

How the data were processed

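Spleens and lymph nodes were, per the labels, processed to polyA RNA and sequenced as paired-end reads of 75 bases. The authors deposited the signal of every gene as normalised counts, that is reads over a size factor from DESeq2, in 1 table. Gene positions are on mm10 by its header, and the submitters' processing notes name STAR 2.4.0, FastQC, Picard, SAMtools and DESeq2. Samples were grouped by title, and per-library columns left unmapped numbered 0.

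For testing, limma 3.58.1 (R 4.3.3, intensity trend, two-sided) was run on log2(normalised count + 1), with all 4 groups of a label in 1 fit. Genes with a mean of at least 10 were kept, all of which entered the Benjamini-Hochberg adjustment (threshold 0.05). Fold changes on this scale understate the change of low genes. Each library's values were whole multiples of 1 step (within 0.01), and the whole reads were also tested with edgeR 4.0.16 and DESeq2 1.42.0. Other alternatives covered the pseudocount, filter, scaling (TMM), groups fitted, library weights, replicate block, each replicate left out, and a rule of 1.5-fold with p at most 0.05 unadjusted. The fit was tested on simulated data.

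All members were named whatever their values. Of the wider list, at most the 4 genes with the lowest adjusted p per label and time were named, plus Nnmt; the other calls under the spleen label at 1 day (Mettl16, Mthfs, Phgdh, Gnmt, Sms) were named after their values were seen. For likeness the 2 genes with the highest r were named. Members and lists were chosen with earlier results of these data known, and the Mettl16 motif after the values were seen. Protein sequences were not used here.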

Additional observations from a re-analysis of the deposited data

Results flagged for a closer look

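Among 54 sets of libraries (a gene in a group of 4 or 5 libraries), 4 held a library far from the others by Dixon's criterion, where chance gives about 1 in 20. All 4 were under the spleen label. Mat2b was 3128 in replicate 1 at 3 days, below 4658 to 5162 in the other 4. Mthfd2 was 918 in replicate 2 at 1 day, below 1271 to 1354. Shmt1 was 287 in replicate 2 at 3 days, below 329 to 344, and 398 in replicate 2 at 14 days, above 308 to 325. Of the libraries concerned, 3-day replicate 1 also had the highest mitochondrial share of normalised counts (14.0%), and 1-day replicate 2 the highest sum of adipocyte markers (472854). The mitochondrial share of 3-day replicate 2 was 6.54%, within the range of the other replicates of its group. That of 14-day replicate 2 was 11.9%, the highest of its group, close above 11.7% in replicate 5. The part of these measures was not tested.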

How the results depend on the processing

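The 1-day and 3-day calls of Mat2a and the 1-day call of Mat2b held under every setting tried that kept the adjusted threshold, as did both calls between 14 days and 1 day. Apart from fits that left out a library, 581 alternative values of single members stayed on the same side of 0 and of the threshold, whereas 8 changed sign, 6 gained a call and 1 lost it. After group means were removed, same-numbered pairs of libraries correlated above 0.1 in 13 of 30 cases under the spleen label and 0 of 16 under the lymph node label. Their r ran from -0.50 to 0.47 and from -0.11 to 0.08. This does not show whether the numbers pair libraries under the spleen label, and the main fit took all libraries as unpaired. With the replicate block the spleen label gave 2, 2 and 0 members called at the 3 times and the lymph node label 0, with 13 genes of the wider list at 1 day in the former. Cbs and Gnmt rest on few reads that varied widely between libraries.

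The number of members called changed as follows. Under the rule of 1.5-fold it was 0 at 1 day, 0 at 3 days and 0 between 14 days and 1 day for the spleen label, and at 3 days it was 1 with the 2 groups alone (0.767% of all genes called) and 3 with library weights (25.9%), Ahcy being the third. For the lymph node label it was 2 with library weights and 2 with DESeq2 at 3 days, and 1 with DESeq2 at 14 days. Leaving out a library gave 1 to 2 at 3 days for the spleen label (1 without untreated replicate 5 or 3-day replicate 2, 3, 4 or 5), beside 0.866% to 15.2% of all genes. It gave 2 to 3 at 1 day and between 14 days and 1 day, Shmt2 being the third. The shares of all genes were 12.5% to 15.8% and 6.65% to 9.95% there. In the wider list the rule of 1.5-fold gave 7, 0 and 1 at 1, 3 and 14 days for the spleen label, and at 3 days there were 2 with the 2 groups alone and 13 of 59 with library weights, a lower share than the 25.9% of all genes. The lymph node label gave 1 at 1 day both with the 2 groups alone and under the rule of 1.5-fold, 4 at 3 days with library weights and with DESeq2, and 2 at 14 days with DESeq2 and under the rule of 1.5-fold. Leaving out a library gave 9 to 13 at 1 day and 1 to 7 at 3 days for the spleen label (7 without 3-day replicate 1, 2 without 3-day replicate 3 and 1 without 3-day replicate 5, beside 15.2%, 0.866% and 1.07% of all genes), and 0 to 1 at 1 day (1 without 1-day replicate 2) and 1 to 2 at 3 days (2 without 3-day replicate 4) for the lymph node label.

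Reversals of sign concerned log2 changes near 0 that passed no test. At 14 days under the spleen label, Shmt2 was -0.0083 with TMM scaling and -0.0042 with edgeR, and Mthfd2 was 0.0481 with library weights. Under the lymph node label, Mat2b at 1 day was 0.0018 with library weights and 0.0111 with the replicate block. Shmt1 at 14 days was 0.0274 with the replicate block, 0.0025 with edgeR and 0.0068 with DESeq2, and Nnmt at 14 days was 0.1185, 0.0167 and 0.0186 with library weights, edgeR and DESeq2. Leaving out a library moved 18 values across 0. Under the spleen label these were Mthfd1 at 1 day (-0.0595 to 0.0041), Shmt1 at 3 days (-0.0232 to 0.0893), at 14 days (-0.0067 to 0.103) and between 14 days and 1 day (-0.081 to 0.0221), and Mthfd2 (-0.0503 to 0.0768) and Shmt2 (-0.055 to 0.0652) at 14 days. For the lymph node label the values at 1 day were Mat2a (-0.0621 to 0.0558), Mat2b (-0.0299 to 0.0172), Mthfd2 (-0.047 to 0.1928), Mtr (-0.2201 to 0.068), Shmt2 (-0.2361 to 0.0169) and Nnmt (-0.1155 to 0.1949). At 3 days Ahcy ranged from -0.0291 to 0.1119, and at 14 days Ahcy from -0.0883 to 0.0527, Mat2b from -0.0187 to 0.0296, Mthfd2 from -0.0303 to 0.0797, Shmt1 from -0.1413 to 0.0505 and Nnmt from -0.1996 to 0.1202. The cause of these differences was not tested.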
